A study of Mus musculus with 8 samples.

Results

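The genes described here are the parts list of 2 forms of programmed cell death, apoptosis and necroptosis, as transcribed in brain endothelial cells (BECs) after subarachnoid haemorrhage (SAH). The list names 37 genes, chosen by their function with earlier results of these data known. Counts over the list are therefore a description only. A gene counted as measured when a probe set of the array was annotated with its symbol alone, and where several were, the probe set with the highest mean over all arrays stood for it. This gave 34 measured genes, and the other 3 were not analysed here. Both groups were male mice of the inbred strain FVB/NJ, aged 12 weeks. In the SAH group (n = 4), 80 μL of blood of a littermate was injected through a burr hole into the prechiasmatic space, and in the Sham group (n = 4) the needle was inserted without blood. CD45–CD31 + cells were taken from the left cerebral hemisphere after 24 h with magnetic beads, and the amplified RNA of each animal was hybridized, without pooling, to 1 Affymetrix Mouse Gene 2.0 ST array. Values are log2 intensities after robust multi-array average (RMA) normalization. Changes are differences of group means on that log2 scale, SAH minus Sham, and are given with the standard error (SE) of the difference.

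Apoptosis is carried out by caspases, proteases that are switched on either at death receptors of the cell surface or by the release of cytochrome c from mitochondria. The mitochondrial route is set by the BCL2 family, in which pro-survival members hold pore-forming members in check and BH3-only members relieve that hold. Necroptosis is a lytic death that runs through the kinase Ripk3 and the membrane-disrupting protein Mlkl, and caspase-8, together with its partner c-FLIP, blocks it. Loss of endothelial cells is one way in which the wall of brain vessels can fail.

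Array medians lay between 4.23 and 4.30, and pairs of arrays correlated at 0.973 to 0.989 over all probe sets. Endothelial markers were abundant in every array, with a summed linear intensity over 10 genes of 16777 to 18008 in SAH and 17060 to 17702 in Sham, although Kdr, Tek and Slco1a4 were lower after SAH. The other 7, none of them called, summed to 14784 to 16217 in SAH and 13871 to 14581 in Sham, higher in SAH with no overlap. Leaving out the 3 called lower in this same comparison favours a higher SAH sum, and all 10 together overlapped. The sums of uncalled markers below were chosen in the same way and are a description only. Microglial and macrophage markers (17 genes) summed to 1119 to 1570 in SAH and 772 to 946 in Sham, with no overlap, and 4 of them (C1qc, Tyrobp, Fcer1g and Ctss) were higher. The other 13 summed to 721 to 976 in SAH and 583 to 697 in Sham. Neutrophil markers (11 genes) summed to 188 to 427 in SAH and 164 to 178 in Sham, with S100a8 and S100a9 higher, and 7 of them averaged below the array medians in both groups. The 9 neutrophil genes not called overlapped, at 118 to 141 in SAH and 109 to 129 in Sham. Of 6 fibroblast markers only Dcn was called, and it was higher. The other 5 overlapped in sum, at 91.0 to 109 in SAH and 91.6 to 99.6 in Sham, and the median log2 change of all 6 was 0.04. Of 8 neuronal markers only Stmn2 was called, and it was lower. The other 7 overlapped in sum, at 139 to 160 in SAH and 135 to 155 in Sham, and 4 of the 8 lay above 0 and 4 below. Kcnj8, a pericyte gene, was higher, while the summed pericyte, astrocyte, oligodendrocyte, lymphocyte and blood cell markers overlapped between groups. Pecam1, which encodes CD31, averaged 10.66 ± 0.09 in SAH and 10.30 ± 0.06 in Sham (SD, n = 4 each, adjusted p = 0.0673). Ptprc, which encodes CD45, averaged 3.62 ± 0.45 in SAH and 2.95 ± 0.23 in Sham, below the array medians in both groups (SD, n = 4 each, adjusted p = 0.123). In such bulk RNA, more cells of a type and more RNA per cell cannot be told apart, and the part of other cells in the results below was not tested.

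Casp8 and Cflar were the 2 genes of the list that rose after SAH, no gene of the list fell, and 32 did not pass the test (limma, adjusted p under 0.05). Over all 25341 probe sets with a symbol, 1.9% were called higher and 1.28% lower, 3.18% in all. When dim probe sets were left out, 30 of the 34 genes and 13918 of the 25341 probe sets stayed. Of those 13918 probe sets, 927 were called. In 8 of the 34 genes, every SAH array lay above every Sham array (Casp8, Cflar, Bcl2, Bid, Cycs, Diablo, Ripk3 and Mdm2), and in none did every SAH array lie below, against 4.51% and 4.47% of all probe sets. Of the 34 genes, 11 had an unadjusted p under 0.05, all of them higher, against 6.92% of all probe sets higher and 7.21% lower at that level. The median log2 change of the 34 genes was 0.13 (quartiles −0.01 and 0.36, range −0.31 to 0.90), and that of all probe sets was −0.02 (quartiles −0.13 and 0.10). In the 4 SAH arrays 23 to 27 of the 34 genes lay above the Sham mean, and in the 4 Sham arrays 14 to 21 did.

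**Figure D1:**
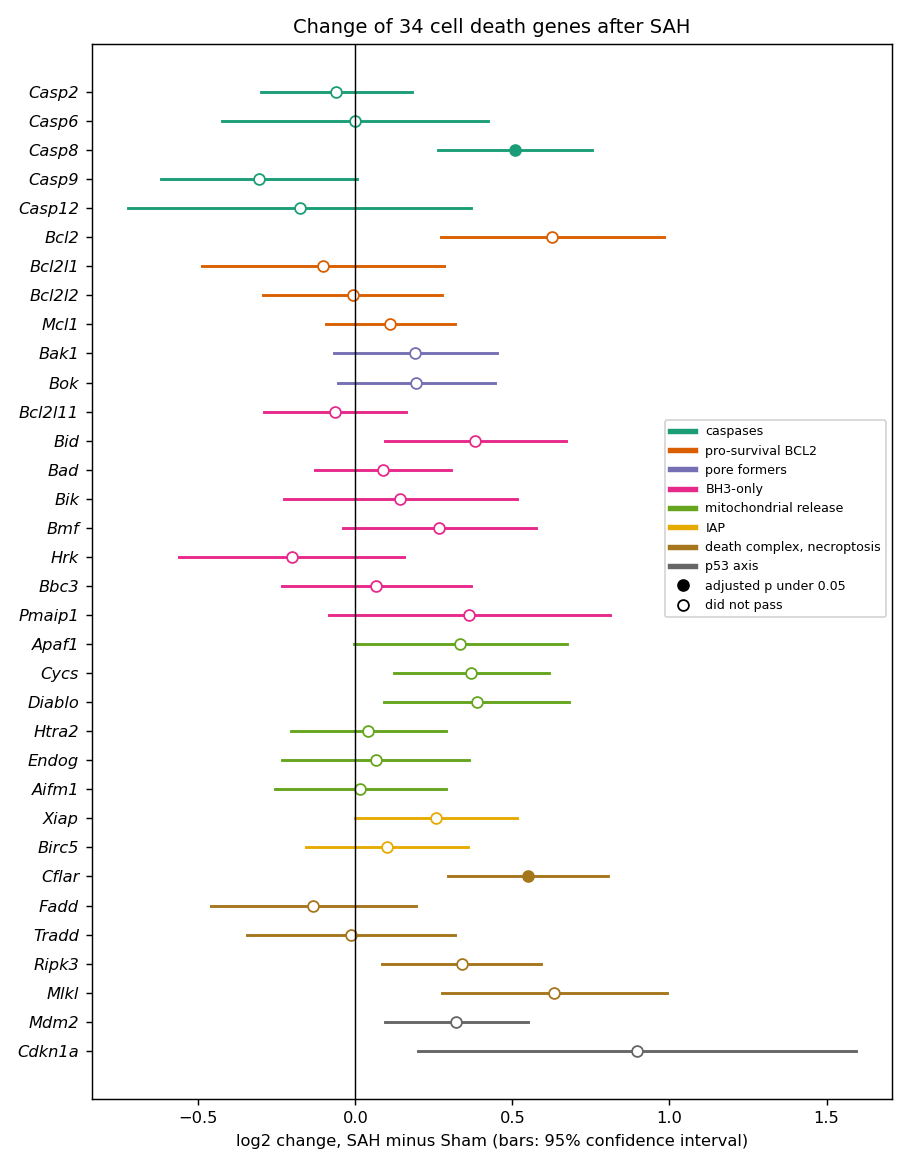
Log2 change (SAH minus Sham) of the 34 measured cell death genes, by role, with the 95% confidence interval as a bar; filled points passed an adjusted p under 0.05. Casp8 (0.51) and Cflar (0.55) are the filled points, and Cdkn1a (0.90) has the widest interval.

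**Figure D2:**
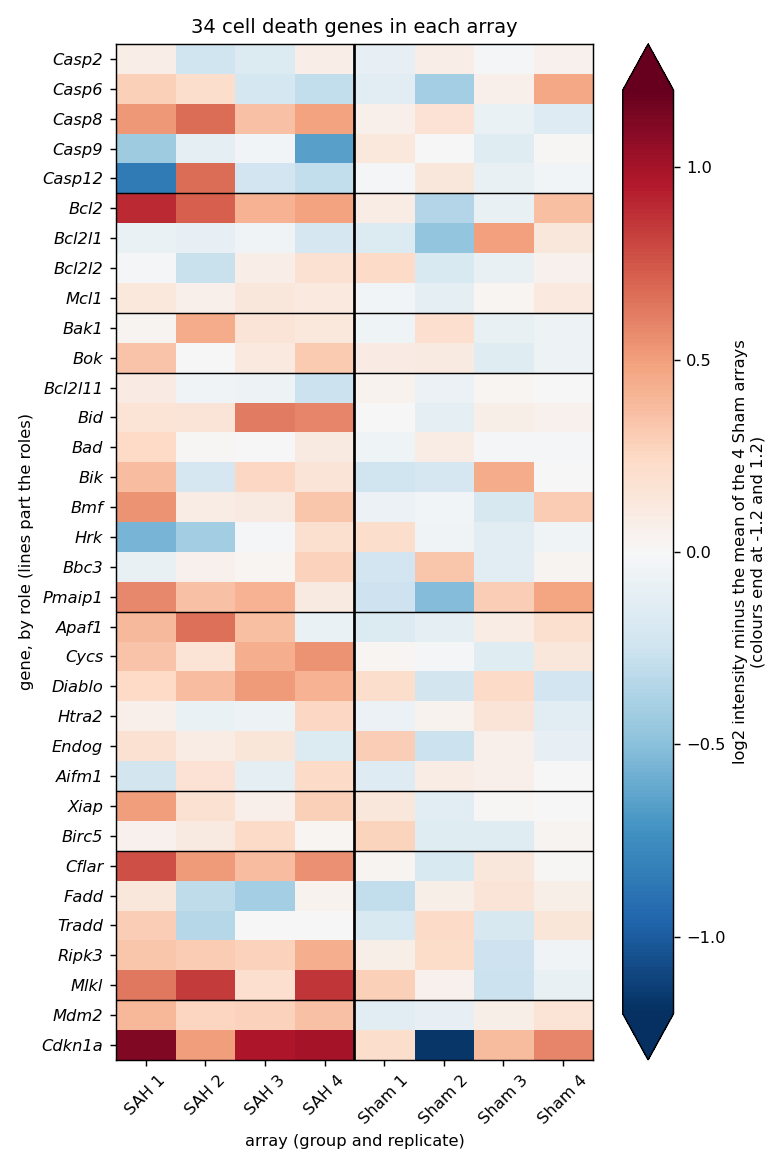
Log2 intensity of each of the 34 genes (rows, by role) in each array (columns, 4 SAH then 4 Sham), as the difference from the mean of the 4 Sham arrays. Casp8, Bcl2, Cflar and Ripk3 are among the genes above the Sham mean in all 4 SAH arrays. Cdkn1a is also above it in all 4, and is far below it in Sham replicate 2.

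Both called genes encode parts of the complex that forms on death receptors. Casp8, the initiator caspase of that complex, measured 8.05, 8.20, 7.88 and 8.01 in the SAH arrays, against 7.59, 7.70, 7.45 and 7.38 in the Sham arrays. The lowest SAH array lay above the highest Sham array. The log2 change was 0.51 (SE 0.11, 95% confidence interval 0.26 to 0.75, adjusted p = 0.0336), or 1.42-fold. Cflar encodes c-FLIP, a relative of caspase-8 without protease activity that joins it and limits its activation. It measured 8.26, 7.996, 7.86 and 8.03 in the SAH arrays, against 7.52, 7.30, 7.62 and 7.50 in the Sham arrays, again with no overlap. Its log2 change was 0.55 (SE 0.12, 95% confidence interval 0.29 to 0.80, adjusted p = 0.0291), or 1.46-fold.

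Both calls lay close to the threshold. With 1 array left out, Casp8 passed in 2 of 8 fits (without SAH replicate 3 or Sham replicate 2), with adjusted p between 0.0395 and 0.0924, and Cflar in 2 of 8 (without SAH replicate 3 or Sham replicate 3), with adjusted p between 0.0373 and 0.0801. Under the methods' t-test with the same adjustment, which called 86 probe sets against 807 by limma, neither passed (adjusted p = 0.112 for each). The log2 changes stayed between 0.45 and 0.56 for Casp8 and between 0.47 and 0.61 for Cflar whichever array was left out.

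**Figure D3:**
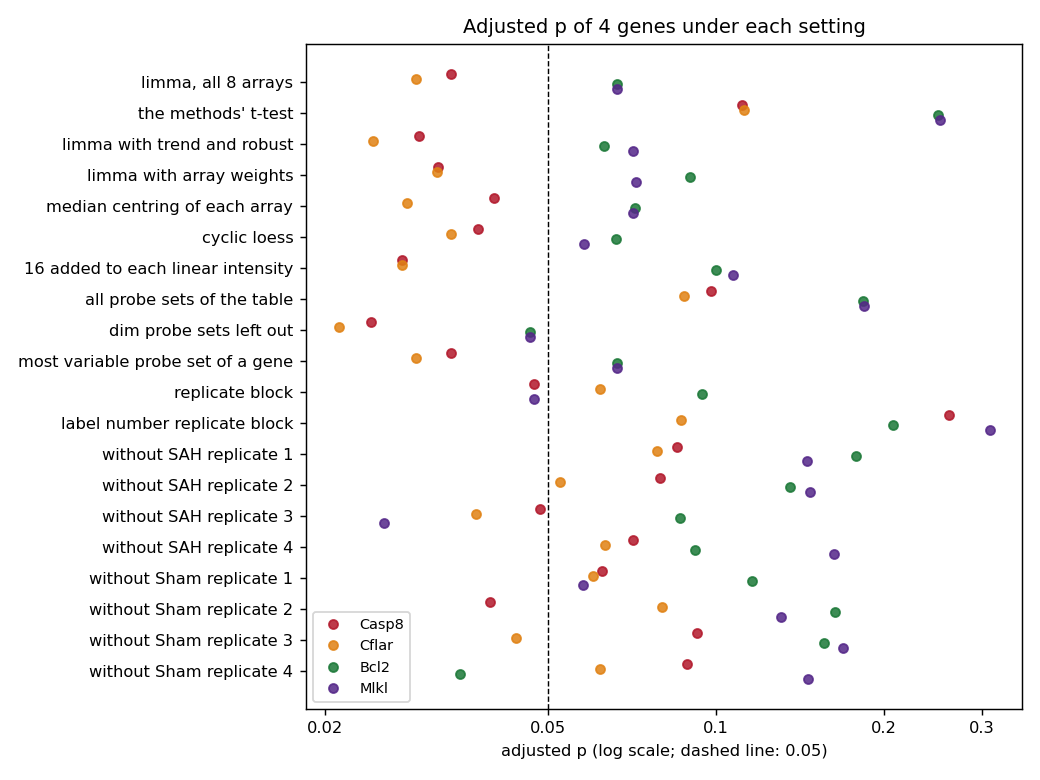
Adjusted p (log axis) of Casp8, Cflar, Bcl2 and Mlkl in the comparison of all 8 arrays and under each alternative setting, with 0.05 as a dashed line. Casp8 and Cflar lie on both sides of the line, and Bcl2 and Mlkl lie mostly to its right.

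Cflar and Casp8 are neighbours among the protein-coding genes of mouse chromosome 1, in that order and on the same strand (RefSeq, GRCm38.p6). The 8 measured genes nearest to the pair changed by −0.24 to 0.32 and none of them was called. The 250 bases before each start are shown because these neighbours were the called genes (chr1:58711241-58711490 and chr1:58802252-58802501, plus strand, both RefSeq GRCm38.p6). None of the 4 motifs searched matched within either stretch, and both are printed in lower case throughout.
Cflar upstream: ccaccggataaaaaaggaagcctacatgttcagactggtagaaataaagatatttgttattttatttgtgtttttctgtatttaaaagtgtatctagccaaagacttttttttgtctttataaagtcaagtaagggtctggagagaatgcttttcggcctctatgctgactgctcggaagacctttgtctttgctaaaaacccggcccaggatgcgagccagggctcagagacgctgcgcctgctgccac
Casp8 upstream: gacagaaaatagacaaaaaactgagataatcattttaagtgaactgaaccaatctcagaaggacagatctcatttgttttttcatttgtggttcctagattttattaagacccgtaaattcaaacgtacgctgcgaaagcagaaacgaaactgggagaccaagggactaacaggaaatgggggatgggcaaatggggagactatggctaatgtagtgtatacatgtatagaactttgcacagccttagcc
The motifs were searched on both strands from 250 bases before to 50 after each start, a window that the RefSeq table holds for 33 of the 37 listed genes (45 promoters). The interferon-response element GAAANNGAAA matched at Cflar, at bases 7 to 16 with the start counted as 1, and occurs in 3.44% of 32851 promoters. It is shown with 10 bases on each side (chr1:58711487-58711516, plus strand), with the match, which reads on the minus strand, in capitals.
Cflar element: ccacgtctgcTTTCGGTTTCtgggcgtctc
No match to the kappaB motif of NF-kappaB (4.51% of promoters), the p53 half-site (8.36%) or the gamma-activated site TTCNNNGAA (8.3%) was found in the windows of Cflar and Casp8.

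The adaptors of the complex did not pass the test. Fadd, which bridges death receptors to caspase-8, averaged 4.81 ± 0.26 in SAH and 4.94 ± 0.20 in Sham (SD, n = 4 each), a log2 change of −0.13 (95% confidence interval −0.46 to 0.19). Tradd, the adaptor of the TNF receptor, averaged 5.18 ± 0.26 in SAH and 5.19 ± 0.22 in Sham, a log2 change of −0.01 (95% confidence interval −0.35 to 0.32). The groups overlapped in both.

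The necroptosis genes were measured higher without passing the test. Mlkl, the effector that ruptures the membrane, measured 5.75, 5.95, 5.32 and 5.97 in the SAH arrays, against 5.40, 5.17, 4.86 and 5.03 in the Sham arrays. SAH replicate 3 lay below Sham replicate 1, and the other 3 SAH arrays lay above all Sham arrays. The log2 change was 0.63 (SE 0.16, adjusted p = 0.0666). With 1 array left out, Mlkl passed in 1 of 8 fits, that without SAH replicate 3 (log2 change 0.78, adjusted p = 0.0255). Adjusted p reached 0.169 in the others. Ripk3, the kinase that activates Mlkl, measured 5.23, 5.20, 5.18 and 5.34 in the SAH arrays, against 4.97, 5.12, 4.65 and 4.86 in the Sham arrays. The groups did not overlap, with SAH replicate 3 close to Sham replicate 2, and the log2 change of 0.34 (SE 0.12) had an adjusted p of 0.183.

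**Figure D4:**
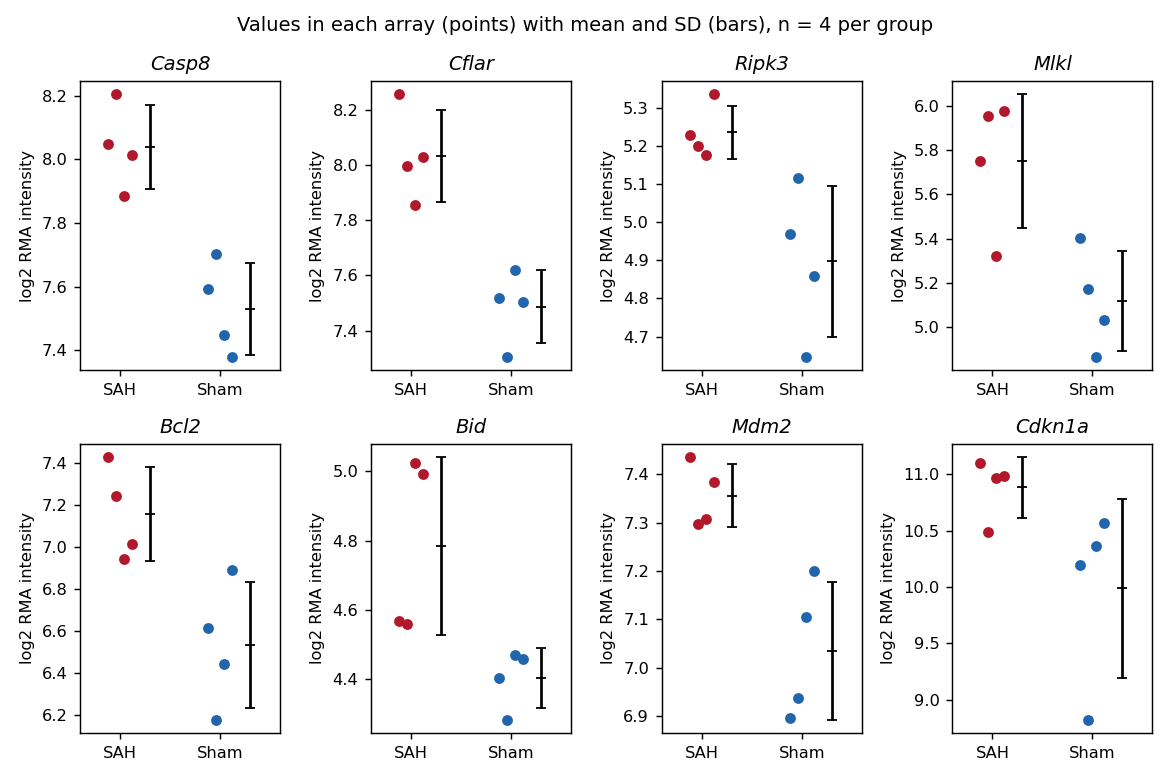
Log2 intensity of 8 cell death genes in each array (points; SAH left, Sham right), with the group mean and SD (bars, n = 4 per group) and an own vertical axis per gene. The groups are apart in Casp8, Cflar, Ripk3, Bcl2, Bid and Mdm2 and overlap in Mlkl and Cdkn1a.

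Upstream of this complex stand the death ligands and receptors, which with 7 further groups made up 73 genes of neighbouring death pathways that are not on the list. Of these, 65 were measured, 9 were called higher and 1 lower, against 1.9% and 1.28% of all probe sets, and their median log2 change was 0.11. These genes were chosen with earlier results of these data known, so their count is a description only. Tnf, the ligand that can start either form of death, measured 6.62, 6.32, 6.72 and 6.21 in SAH, against 5.13, 5.08, 4.76 and 5.14 in Sham. All SAH arrays lay more than 1 log2 unit above all Sham arrays, and the log2 change was 1.44 (SE 0.14, adjusted p = 0.000369). The other 2 measured ligands were not called and their groups overlapped: Tnfsf10 (TRAIL) gave −0.86 (SE 0.33, adjusted p = 0.238) and Fasl −0.10 (SE 0.10, adjusted p = 0.729). Among 5 receptors, Tnfrsf1a, the main TNF receptor of most tissues, rose by 1.17 (SE 0.16, adjusted p = 0.0031) and Tnfrsf10b, the mouse TRAIL receptor, by 0.83 (SE 0.11, adjusted p = 0.00201). Tnf and the summed microglial and macrophage markers, 4 of 17 called, were both higher in SAH arrays, as given above. Which cells held the Tnf RNA was not tested.

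Among 11 genes that act at the TNF receptor complex, with roles that differ, 3 rose and none fell. Birc2 and Birc3 encode the ubiquitin ligases cIAP1 and cIAP2, which keep the complex in its survival form, and they lie next to each other on chromosome 9. Birc2 rose by 1.10 (SE 0.18, adjusted p = 0.00774) and Birc3 by 1.22 (SE 0.16, adjusted p = 0.00196). Tnfaip3, the ubiquitin-editing enzyme A20, rose by 1.08 (SE 0.20, adjusted p = 0.0145). Each of the 3 was called with any 1 array left out, as were Tnf, Tnfrsf1a and Tnfrsf10b. Under the methods' t-test Birc2, Birc3, Tnfaip3 and Tnfrsf1a did not pass (adjusted p between 0.0693 and 0.152), nor did they with the label number as a replicate block in limma (adjusted p between 0.0522 and 0.159). That blocked fit rests on fewer arrays, because those whose label number has no partner in the other group add nothing to the change. The 6 measured genes of the execution phase, in which DNA and membranes are taken apart, held no called gene, and Dffa, the inhibitor of the caspase-activated nuclease, lay farthest from 0 at −0.20 (adjusted p = 0.466).

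**Figure D5:**
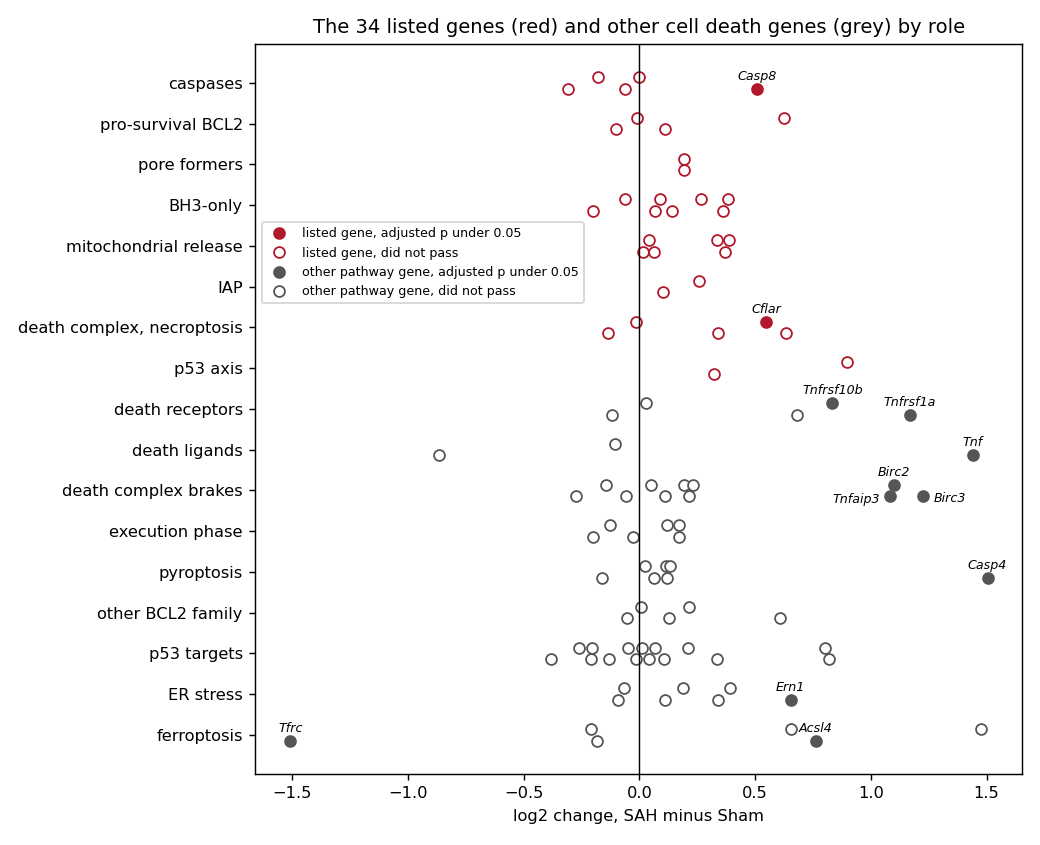
Log2 change (SAH minus Sham) of each measured gene of the list (red) and of the neighbouring death pathways (grey), by role, with filled and named points for an adjusted p under 0.05. The filled points among ligands, receptors and brakes lie at 0.83 to 1.44, to the right of those of Casp8 and Cflar at 0.51 and 0.55. Brakes here names the genes that act at the TNF receptor complex, whether or not they restrain it.

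Within the BCL2 family, which decides over the mitochondrial route, no gene passed. Bcl2, the pro-survival founder of the family, measured 7.43, 7.24, 6.94 and 7.01 in SAH, against 6.61, 6.18, 6.44 and 6.89 in Sham. The groups did not overlap, with SAH replicate 3 close to Sham replicate 4. The log2 change was 0.63 (SE 0.16, adjusted p = 0.0665), and without Sham replicate 4 it was 0.75 and passed (adjusted p = 0.0348). The second Bcl2 probe set gave 0.21 (SE 0.13, adjusted p = 0.557). The 3 other pro-survival genes lay near 0, with 95% confidence intervals inside ±0.5: Mcl1 at 0.11 (−0.09 to 0.32), Bcl2l1, which encodes BCL-XL, at −0.10 (−0.49 to 0.28), and Bcl2l2 at −0.01 (−0.29 to 0.28). Among the pore formers, Bak1 and its relative Bok were each 0.19 higher, with groups that overlapped and adjusted p of 0.536 and 0.511.

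The 8 BH3-only genes, the sensors that trigger the family, gave a median log2 change of 0.12. Bid, which caspase-8 cleaves to carry the receptor signal to mitochondria, measured 4.57, 4.56, 5.02 and 4.99 in SAH, against 4.40, 4.28, 4.47 and 4.46 in Sham. SAH replicates 3 and 4 stood apart from SAH replicates 1 and 2, which lay just above the Sham arrays, and the test was not passed by the log2 change of 0.38 (SE 0.13, adjusted p = 0.186). Pmaip1 (Noxa) was next at 0.36 (SE 0.20, adjusted p = 0.48), with SAH arrays between 7.36 and 7.83 and Sham arrays between 6.74 and 7.74. Bmf gave 0.27 (adjusted p = 0.438). Bmf is tied to the cytoskeleton, Bad to growth factor signals and Bbc3 (Puma) to p53. Bik, Bad and Bbc3 gave 0.14, 0.09 and 0.07, and Bcl2l11 (Bim) and Hrk gave −0.06 and −0.20, all with overlapping groups. Hrk and Bbc3 averaged below the array medians in both groups.

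All 6 genes of mitochondrial release were measured above 0, with a median log2 change of 0.20, and none passed. Diablo, whose product frees caspases from their inhibitors, measured 6.06, 6.19, 6.33 and 6.24 in SAH, against 6.04, 5.60, 6.05 and 5.59 in Sham. Sham replicates 1 and 3 came close to SAH replicate 1 without reaching it, and the log2 change was 0.39 (SE 0.13, adjusted p = 0.191). Cycs, which encodes cytochrome c, measured 9.34, 9.16, 9.44 and 9.53 in SAH, against 9.02, 8.99, 8.85 and 9.13 in Sham, a log2 change of 0.37 (SE 0.11, adjusted p = 0.128). A further 4 Cycs probe sets gave changes of 0.32, 0.57, 0.69 and 0.69, of which the last pair held identical values in all arrays and passed (adjusted p = 0.0165). The mouse genome holds many processed copies of Cycs, so which transcript each probe set reads is uncertain. Apaf1, the scaffold on which cytochrome c activates caspase-9, gave 0.33 (SE 0.15, adjusted p = 0.361), and the nuclease Endog, the protease Htra2 and the flavoprotein Aifm1 gave 0.06, 0.04 and 0.02.

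Casp9, the initiator caspase of the mitochondrial route, had the lowest log2 change of the list. It measured 5.20, 5.52, 5.60 and 4.98 in SAH, against 5.76, 5.64, 5.49 and 5.65 in Sham. SAH replicates 1 and 4 lay below all Sham arrays while SAH replicates 2 and 3 lay among them, and the log2 change was −0.31 (SE 0.14, adjusted p = 0.361). Casp2, which responds to failed cell division, gave −0.06 and Casp6, an executioner caspase, gave 0.00, with overlapping groups. Casp12, a caspase of the endoplasmic reticulum, measured 2.80, 4.33, 3.42 and 3.36 in SAH, against 3.63, 3.79, 3.57 and 3.62 in Sham, below the array medians on average in both groups. Its SD was 0.63 in SAH and 0.10 in Sham. Casp8 was thus the 1 caspase of 5 that rose, and the median of the 5 was −0.06. Xiap, the direct inhibitor of executioner caspases, averaged 7.46 ± 0.19 in SAH and 7.20 ± 0.11 in Sham (SD, n = 4 each), a log2 change of 0.26 (adjusted p = 0.353). Birc5 (survivin), which is made in dividing cells, gave 0.10 and averaged below the array medians in both groups.

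The p53 axis held the log2 change farthest from 0 of the list. Cdkn1a, which encodes the cell cycle inhibitor p21, measured 11.10, 10.49, 10.96 and 10.98 in SAH, against 10.20, 8.82, 10.37 and 10.57 in Sham. Sham replicate 2 lay more than 1 log2 unit under every other array, and SAH replicate 2 lay below Sham replicate 4. The log2 change was 0.90 (SE 0.32, adjusted p = 0.204), and without Sham replicate 2 it was 0.51 (adjusted p = 0.189). Mdm2, the ubiquitin ligase that p53 induces and that degrades it, measured 7.44, 7.30, 7.31 and 7.38 in SAH, against 6.90, 6.94, 7.11 and 7.20 in Sham. The groups did not overlap, and the log2 change was 0.32 (SE 0.10, adjusted p = 0.152). Both genes are textbook p53 targets and are shown with a match to the p53 half-site in their promoters, in capitals with 10 bases on each side (chr17:29090896-29090925, plus strand, and chr10:117710925-117710954, minus strand, RefSeq GRCm38.p6).
Cdkn1a half-site: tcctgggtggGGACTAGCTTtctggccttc
Mdm2 half-site: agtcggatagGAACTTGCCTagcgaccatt
Cdkn1a held 2 matches, at −73 to −64 and at −51 to −42 bases from the start, and the first is printed. Binding of p53 was not tested. The half-site matched in 6 of the 33 listed genes with a promoter window, among them Bmf and Birc5, and occurs in 8.36% of all promoters. The first count is of genes with a match in any of their promoters (45 in all) and the second of single promoters, so the 2 are not directly comparable. Counted in the same way, the kappaB motif also matched in 6 of the 33 genes and occurs in 4.51% of all promoters. Of 15 other measured p53 targets none was called, their median log2 change was 0.01, and Ddit4, an inhibitor of mTOR signalling, lay farthest from 0 at 0.82 (SE 0.21, adjusted p = 0.0668).

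Among 7 pyroptosis genes, Casp4, the mouse sensor of intracellular lipopolysaccharide also known as caspase-11, measured 6.10, 7.64, 7.50 and 6.20 in SAH, against 5.24, 5.35, 4.97 and 5.85 in Sham. SAH replicates 2 and 3 were more than 1 log2 unit above SAH replicates 1 and 4, all 4 lay above the Sham arrays, and the log2 change was 1.504 (SE 0.34, adjusted p = 0.0376). It passed in 3 of 8 fits with 1 array left out (without SAH replicate 1, SAH replicate 4 or Sham replicate 4), with adjusted p up to 0.108. Its neighbours on chromosome 9, Casp1 and Casp12, gave 0.12 and −0.18. Among 7 genes of endoplasmic reticulum stress, Ern1, the stress sensor IRE1, rose by 0.65 (SE 0.13, adjusted p = 0.0191), and it passed in 4 of 8 fits with 1 array left out (without SAH replicate 2, SAH replicate 4, Sham replicate 3 or Sham replicate 4). Among 6 genes of ferroptosis, Acsl4, which loads membranes with oxidizable lipids, rose by 0.76 (SE 0.12, adjusted p = 0.00489). Tfrc, the transferrin receptor, fell by 1.51 on the log2 scale (SE 0.24, adjusted p = 0.00572), to 35.2% of Sham. None of Casp4, Ern1, Acsl4 and Tfrc passed under the methods' t-test (adjusted p between 0.061 and 0.252). The 5 other measured BCL2 relatives held no called gene, and Bcl2a1a, which shares near-identical copies, lay farthest from 0 at 0.61 (SE 0.17, adjusted p = 0.0882).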

How the data were processed

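The authors amplified RNA of CD45–CD31 + BECs with the Ovation Pico WTA System V2, hybridized 1 array per animal and normalized with RMA in the oligo package (R 3.2.2, per the submitters' processing notes). The deposited values are log2 intensities for 41345 probe sets, and they were used without further normalization. The platform annotation gave 25341 probe sets at least 1 symbol, of which 23521 had exactly 1 and 1820 had several. The 16004 others are unnamed here. The genome build of the array annotation is not given in the sources used here, so coordinates were taken from RefSeq GRCm38.p6 for promoter sequences only.

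SAH and Sham were compared with limma 3.58.1 (lmFit and eBayes, R 4.3.3, two-sided), and p values were adjusted by Benjamini-Hochberg over the 25341 tested probe sets. A gene was called at an adjusted p under 0.05. The scripts were tested on simulated data. The number of arrays limits the precision, and the median SE of a log2 change was 0.13 for the listed genes and for all probe sets alike. Summed marker intensities are sums of linear values.

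The list of 37 genes, the 73 genes of neighbouring pathways and the marker lists were chosen with earlier results of these data known. All listed genes are reported, with every called gene of the pathway lists, or the gene farthest from 0 where none was called, the uncalled death ligands, the called marker genes, and Pecam1 and Ptprc. Alternatives were the methods' t-test (run with equal variances on the same 25341 probe sets, which need not be the set or the form the authors used), cyclic loess, median centring of each array, weights for arrays, limma with trend and robust options, 16 added to each linear intensity, all probe sets of the table, dim probe sets left out, the most variable probe set of a gene, blocks by replicate number or label number, and each array left out in turn. Per the methods, animals were processed in pairs, mostly SAH with Sham, on separate days. The labels used here give no day for an array, so day was not used as a block and its part in the results was not tested. Genes without a probe set of their own symbol were not analysed here.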

Additional observations from a re-analysis of the deposited data

Results flagged for a closer look

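A sample far from the rest of its group was looked for in 88 groups of 4 arrays, those of each listed gene and of each called pathway gene. Such a test picks about 1 group in 20 by chance, and it picked 2. Bak1, a pore former of the BCL2 family, was 7.77 in Sham replicate 2 against 7.48 to 7.52 in the other 3 Sham arrays. Its gap was 0.894 of the range of the group, past the critical value of Dixon's test for 4 samples. Tnf, the ligand of the TNF receptors, was 4.76 in Sham replicate 3 against 5.08 to 5.14 in the other 3 Sham arrays, a gap of 0.845 of the range. Tnf was called with any 1 array left out, and Bak1 in none of these fits.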

How the results depend on the processing

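The count of listed genes that rose was 2 with all arrays and under cyclic loess, median centring, weights for arrays, limma's trend and robust options, 16 added to each linear intensity and the most variable probe set of a gene. It was 0 under the methods' t-test, 0 with all 41345 probe sets tested, 0 with the label number as a replicate block, and 4 (Casp8, Cflar, Bcl2 and Mlkl) with dim probe sets left out. That last setting kept 30 listed genes, and 927 of its 13918 probe sets were called. With each array left out in turn it lay between 0 and 3: 3 without SAH replicate 3 (Casp8, Cflar and Mlkl), 1 each without Sham replicate 2 (Casp8), Sham replicate 3 (Cflar) or Sham replicate 4 (Bcl2), and 0 without each of the other 4. The count of listed genes that fell was 0 under every setting, also with each array left out. Leaving single arrays aside, Casp8 passed in 8 and Cflar in 7 of 11 alternatives. Of the 10 called pathway genes, Tnf and Tnfrsf10b passed in all 11 and the others in 6 (Casp4) to 10 (Tfrc).

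Same-numbered SAH and Sham arrays did not deviate together (correlations of −0.06 to 0.03 by replicate number and −0.06 to 0.02 by label number), so the numbers were not taken to pair animals. With the replicate number as a block, 2 listed genes rose, Casp8 (adjusted p = 0.0472) and Mlkl (adjusted p = 0.0472), Cflar did not pass (adjusted p = 0.0621), and 627 probe sets were called. With the label number as a block, 275 probe sets were called, against 807 without a block. SAH replicate 2 and Sham replicate 3 share no label number with an array of the other group. They add nothing to the change in that fit, which thus rests on fewer arrays.

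Listed genes near 0 changed sign under some settings, and none of them was called in any. The log2 change of Bcl2l2 became 0.012 with array weights, 0.00068 with median centring, 0.011 with cyclic loess and 0.048 with the label number block. That of Casp6 became 0.0077 with median centring and 0.016 with cyclic loess, and that of Tradd 0.0095 with cyclic loess and 0.033 with the label number block. With that block Bcl2l1 became 0.059 and Aifm1 −0.016. With each array left out, the ranges that crossed 0 were −0.14 to 0.15 for Casp6, −0.46 to 0.047 for Casp12, −0.26 to 0.062 for Bcl2l1, −0.072 to 0.079 for Bcl2l2, −0.12 to 0.00043 for Bcl2l11, −0.0098 to 0.18 for Bbc3, −0.026 to 0.094 for Htra2, −0.021 to 0.16 for Endog, −0.055 to 0.095 for Aifm1 and −0.11 to 0.098 for Tradd. The cause was not tested. With 4 arrays per group a probe set was called only at an unadjusted p of 0.00159 or less. Casp12, Hrk, Bbc3 and Birc5 averaged below the array medians in both groups, where the signal is dim.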
